A study of Brassica napus with 2 samples.

Results

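Among the genes of *B. napus* seedlings outside the *Aux/IAA* family, 294 were well expressed and at least 2-fold higher in the library treated with IAA, the auxin indole-3-acetic acid, than in the control library. These members were chosen from the measured values themselves. A gene had to reach at least 10 FPKM in at least 1 library, a log2 fold change of at least 1 was required, and the identifiers of the *Aux/IAA* family listed by the study were left out. FPKM is the number of sequenced fragments scaled for transcript length and library size, and the fold change was taken on a log2 scale as IAA over control, with 0.1 FPKM added to each value. Of 63193 genes with values, 15593 outside the family reached 10 FPKM, and 1.89% of these were the 294 members. That share is fixed by the rule and is given as a description.

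The IAA library was made from 10 pooled 30-day-old seedlings kept for 3 h with 1 μM IAA. The control library was made from 10 pooled seedlings of the same age kept for 3 h without IAA, in liquid medium by the methods of the study and in water by the sample labels. All seedlings were grown on agar medium in a 16 h light period. With 1 library per condition there was no replicate, so that none of the differences has a replicate check, no test of the conditions was possible, and a response to IAA cannot be told apart from a difference between the pools of seedlings. In whole seedlings, more cells of a type and more RNA per cell cannot be told apart either.

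Auxin acts in the nucleus by bringing Aux/IAA repressors to receptors that lead to their degradation, which frees auxin response factors to activate their targets. In *Arabidopsis* the targets that respond early include the *Aux/IAA*, *GH3* and *SAUR* families, whose products repress auxin signalling, conjugate auxin to amino acids and promote cell expansion. *B. napus* is an allotetraploid that carries an A subgenome from *B. rapa* and a C subgenome from *B. oleracea*. Its gene identifiers on the Darmor-*bzh* genome give the chromosome and a gene number, which increases along the chromosome in steps of 10. For example, BnaA10g16740D and BnaA10g16750D lie on chromosome A10 with consecutive numbers. The files give no names or functions for these genes, and the RefSeq gene table of the Da-Ae assembly held 14 of the 294 members by identifier, all 14 protein coding and none with a descriptive name. Members are therefore described by identifier, and no function is assigned to any of them.

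The depth of the libraries was estimated from low values. Whole numbers of fragments were obtained for weakly expressed *Aux/IAA* genes at a depth of 18300000 fragments in the IAA library and 23700000 in the control library. At these depths 10 FPKM stands for 183 fragments per kilobase of effective transcript length with IAA and 237 in the control. For a gene of 10 FPKM with IAA and 5 FPKM in the control, the 95% exact binomial interval of the log2 ratio ran from 0.66 to 1.35 at an effective length of 1000 bp and from 0.22 to 1.80 at 200 bp. Members close to the threshold, short ones above all, are thus less firmly at least 2-fold higher than those far above it. These intervals cover counting error only. Over all genes at 10 FPKM the median log2 fold change was -0.04.

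Expression of the 294 members with IAA ranged from 10.1 to 2284 FPKM with a median of 26.4 FPKM, and in the control from a listed 0 to 922 FPKM with a median of 8.23 FPKM. Their median log2 fold change was 1.52, with quartiles of 1.16 and 2.28. A log2 fold change under 2 was found for 196 members, while 98 reached 2, 36 reached 3 and 18 reached 4. These counts include 11 members listed at 0 in the control, whose fold change is set by the added 0.1 FPKM. Most members were thus 2- to 4-fold higher, and a small group was far higher. Summed over the members, the values came to 19184 FPKM with IAA and 6632 FPKM in the control, or 2.55% and 0.891% of the sum over all genes in the same library. Each member had to be at least 2-fold higher with IAA, so that the higher sum and share with IAA follow from the rule. BnaAnng36210D alone made up 11.9% of the members' sum with IAA and 13.9% in the control.

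**Figure D1:**
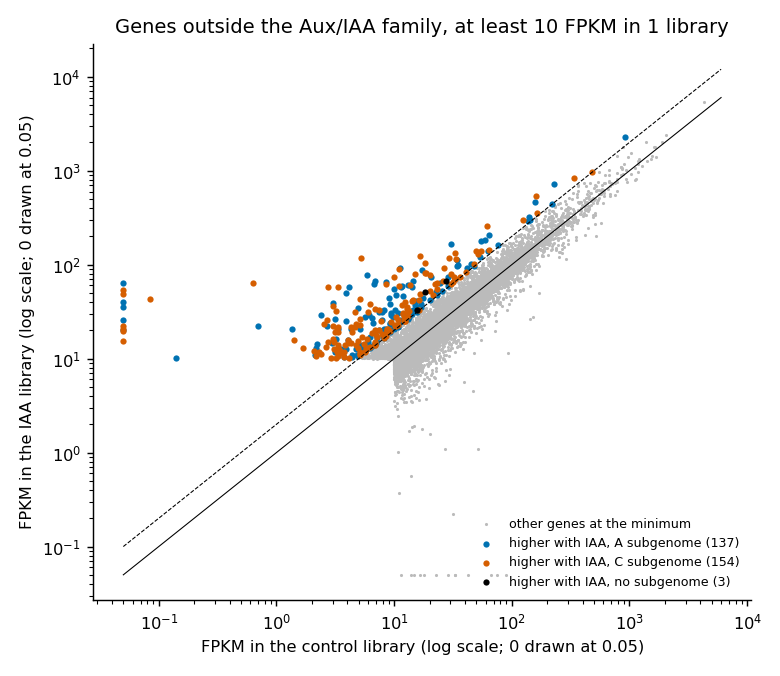
FPKM of each gene in the IAA library (vertical, log scale) against the control library (horizontal, log scale) for the 15593 genes that reached 10 FPKM in either library and do not belong to the *Aux/IAA* family. Blue, orange and black points are the 294 members by subgenome, the solid line marks equal values and the dashed line a 2-fold difference. The 11 members listed at 0 FPKM in the control stand at the left edge.

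The size of the difference varied with the level in the control. For 125 members the control value was at least 10 FPKM, and these had a median log2 fold change of 1.31 and a highest value of 3.02. Another 154 members lay between 1 and 10 FPKM in the control, with a median log2 fold change of 1.79 and a highest value of 4.45. The remaining 15 members were under 1 FPKM in the control, 11 of them listed at 0. Since every member had to reach 10 FPKM, a gene with a low control value could enter only with a large fold change, so that this order comes in part from the rule.

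At the threshold of the fold change, BnaC08g26740D was just inside, at 73.3 FPKM with IAA and 36.6 FPKM in the control, and BnaCnng66500D was next, at 61.6 FPKM and 30.7 FPKM. Just outside lay BnaA07g10020D, at 10.4 FPKM with IAA and 5.14 FPKM in the control, and BnaC07g47570D, at 157 FPKM and 78.4 FPKM. At the minimum of 10 FPKM, BnaC07g45220D was inside at 10.1 FPKM with IAA and 3.18 FPKM in the control. BnaA08g20020D was outside at 9.96 FPKM with IAA and 3.32 FPKM in the control, and BnaAnng25610D at 9.95 FPKM and 1.51 FPKM. Genes on either side of the fold limit had nearly the same ratio at different levels, and those at the minimum nearly the same IAA value with different control values.

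The members with the highest expression had modest fold changes. BnaAnng36210D, of the A subgenome but no numbered chromosome, was at 2284 FPKM with IAA and 922 FPKM in the control, a ratio of 2.48. BnaC03g59520D followed at 973 FPKM with IAA and 480 FPKM in the control, and BnaC04g34390D at 838 FPKM and 338 FPKM. These 3 genes were already among the strongly expressed genes without IAA. BnaA04g08570D was at 724 FPKM with IAA and 229 FPKM in the control, and BnaC02g37040D at 533 FPKM and 160 FPKM, ratios of 3.16 and 3.33. In all, 33 members reached at least 100 FPKM with IAA. The gene numbered before BnaC02g37040D, BnaC02g37030D, stayed under the minimum, at 6.56 FPKM with IAA and 1.62 FPKM in the control.

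Among the members with at least 1 FPKM in the control, the largest ratio was that of BnaC09g29100D, at 116 FPKM with IAA and 5.24 FPKM in the control, a ratio of 22.2. On chromosome C01, BnaC01g01570D was at 58.3 FPKM with IAA and 2.74 FPKM in the control, and BnaC01g19710D at 57.9 FPKM and 3.32 FPKM, ratios of 21.3 and 17.4. BnaA01g00580D reached a level close to these with IAA, 58.5 FPKM, against 4.13 FPKM in the control. BnaA06g23720D was at 76.9 FPKM with IAA and 5.86 FPKM in the control, a ratio of 13.1. Of the 12 genes with the largest changes in this class, 6 were on the A and 6 on the C subgenome, and the lowest log2 fold change among them was 3.29, in BnaCnng13070D.

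For the 15 members under 1 FPKM in the control, 7 of the A and 8 of the C subgenome, the fold change rests on few control fragments or on none. BnaA03g50720D had the highest value with IAA, 64.1 FPKM, and was listed at 0 in the control. BnaC03g76580D was at 48.7 FPKM, BnaA10g07030D at 39.99 FPKM and BnaAnng11950D at 35.3 FPKM with IAA, all listed at 0 in the control. The other genes listed at 0 in the control had between 15.5 and 53.2 FPKM with IAA. For comparison, 3 fragments in the control library correspond to 0.127 FPKM at an effective length of 1 kb and to 0.633 FPKM at 200 bp, and the IAA values of these genes lie well above both. A value listed at 0 can also be a failed estimate, or fragments given to a similar copy when the FPKM values were made, which was not tested. The size of the fold change of the 11 genes listed at 0 is set by the added 0.1 FPKM and is not given in the text. BnaC06g29040D was at 43.4 FPKM with IAA and 0.0846 FPKM in the control, and BnaA01g17230D at 10.1 FPKM and 0.139 FPKM.

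The members were spread over both subgenomes in the proportion of the expressed genes. The A subgenome held 137 members, 46.6% of all, and 47.5% of the genes at 10 FPKM. The C subgenome held 154 members, 52.4% of all, and 52.3% of the genes at that level. Of the genes at 10 FPKM, 1.85% on the A and 1.89% on the C subgenome were members, and the 95% exact binomial intervals, from 1.55% to 2.18% and from 1.60% to 2.21%, overlapped almost completely. The 3 other members came from 27 genes assigned to neither subgenome. With IAA the A members had a median of 28.9 FPKM and the C members of 24.7 FPKM, and in the control 9.19 FPKM and 7.07 FPKM. The median log2 fold change was 1.45 for A and 1.61 for C members.

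Every numbered chromosome held members, from 4 on A04 to 33 on C03. As a share of the genes at 10 FPKM on the chromosome, the members ranged from 0.901% on A04 and C05 to 2.96% on A10. Next to A10 stood C09 with 2.56% and C03 with 2.47%. A10 and C05 were looked at because they stood at the ends of the range of shares. The interval on A10, from 1.73% to 4.70%, included the 1.89% of all genes, and that on C05, from 0.39% to 1.77%, did not. Neighbouring genes are not independent, so that these intervals are too narrow. The members in the blocks described next were then left out, a choice made after seeing the data. Without them the share was 1.24% on A10, 1.30% on C09, 1.73% on C03 and 1.67% on A03, against 1.58% over all genes. Only members were taken out, so that these shares had to fall. The interval on C05, which held no block, included the 1.58%. The genes at no numbered chromosome held 40 members, 2.56% of 1565 genes.

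**Figure D2:**
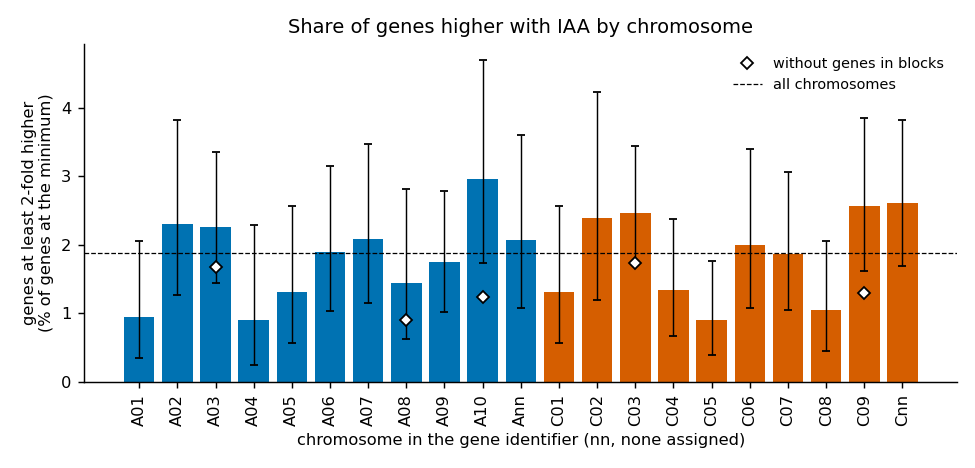
Members as a percentage of the genes with at least 10 FPKM, by the chromosome in the identifier (blue for A, orange for C, nn for genes of a subgenome at no numbered chromosome). Error bars are 95% exact binomial intervals, and the dashed line is the 1.89% of all genes. Diamonds on the 5 chromosomes A03, A08, A10, C03 and C09 leave out the members in blocks. This had to lower the share and moved A10 the most of the 5, from 2.96% to 1.24%. The chromosomes A02, A06, C02 and C07 also held blocks but have no diamond, so that their bars include members in blocks.

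Genes at 10 FPKM beside a member were members far more often than those beside other genes at 10 FPKM. On the numbered chromosomes, members had 377 neighbours with values at the next number, and 132 of these reached 10 FPKM. A gene between 2 members was counted for each of them, so that these are neighbour positions and not different genes. Of the 132, 54 were members themselves (40.9%, from 27 pairs counted from both sides). Counted in the same way, 78 of 5920 (1.32%) were members beside genes at 10 FPKM that were no members. Most of the 27 pairs lay within a few longer blocks described below, so that they are not independent of each other. Of the 132 neighbours at 10 FPKM, 0 were at least 2-fold lower. At least 2-fold lower with IAA were 255 genes at 10 FPKM (1.64%). Beside them 0 of 83 neighbours at that level were members, which is the same 0 seen from the other side, and 8 (9.64%) were lower. In all, 41 of the 254 members on numbered chromosomes had a member as next number.

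Genes next to a member that were too weakly expressed to be members showed the same tendency, and the rule had not used them. Of 160 such genes with a higher value between 1 and 10 FPKM, 26 had a log2 fold change of at least 1 (16.2%) and 6 of -1 or lower. Over all 25354 genes in this range on the numbered chromosomes, 2.65% were at least 2-fold higher and 6.45% lower. The median log2 fold change of the 160 genes was nevertheless 0.00, against -0.16 for all, so that most neighbours did not differ between the libraries by 2-fold. Several of the 26 higher genes were listed at 0 in the control, such as BnaC07g50440D at 7.39 FPKM with IAA. The size of their fold change is set by the added 0.1 FPKM. Several, such as BnaC03g08710D and BnaC09g29120D, lay inside or beside the blocks described below and are not independent of each other. Fragments of adjacent genes that overlap or resemble each other could have been divided between them in the FPKM estimates, and its part in these counts was not tested.

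**Figure D3:**
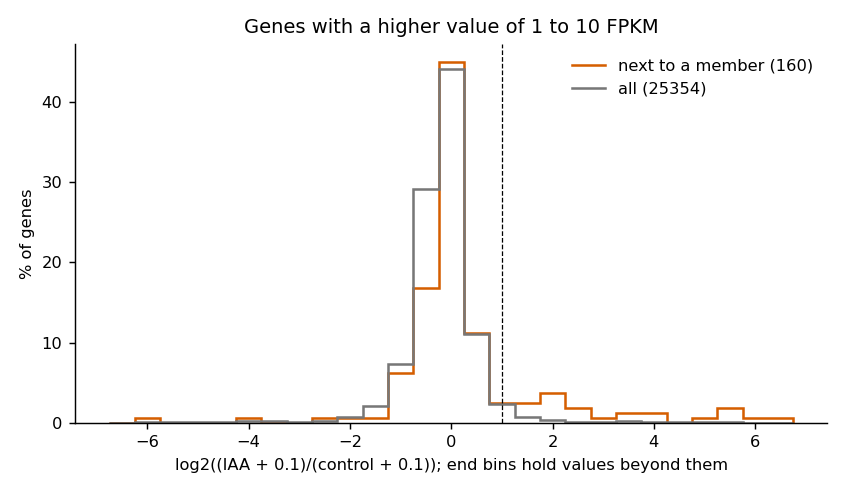
Log2 fold change (IAA over control, horizontal) of genes whose higher value lies between 1 and 10 FPKM, as a percentage of genes in bins of 0.5 (vertical). The orange line shows the 160 genes next to a member and the grey line all 25354 genes; 16.2% and 2.65% lie at or to the right of the dashed line at 1.

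Grouping members with at most 2 gene numbers between them gave 15 blocks with 48 members, 23 on the A and 25 on the C subgenome. Blocks of at least 3 members numbered 5, with 28 members on A03, A08, A10, C03 and C09. The members in blocks had a median log2 fold change of 2.33, a median of 32.4 FPKM with IAA and of 5.77 FPKM in the control. For the 246 members outside blocks the medians were 1.42, 26.2 FPKM and 8.76 FPKM. Without the blocks, 46.3% of the members were on the A and 52.4% on the C subgenome.

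The longest block lay on chromosome A10, where 10 of 11 genes with consecutive numbers were members. BnaA10g16740D was at 47.1 FPKM with IAA and 10.3 FPKM in the control, and BnaA10g16750D at 55.5 FPKM and 10.04 FPKM. The only other gene inside, BnaA10g16760D, was at 16.7 FPKM with IAA and 10.2 FPKM in the control, a log2 fold change of 0.70. From there the series was unbroken. BnaA10g16770D was at 16.1 FPKM with IAA and 3.20 FPKM in the control, BnaA10g16780D at 23.96 FPKM and 6.58 FPKM, BnaA10g16790D at 66.9 FPKM and 14.5 FPKM, and BnaA10g16800D at 57.5 FPKM and 11.4 FPKM. BnaA10g16810D had the lowest control value of the block, 0.691 FPKM, and 22.0 FPKM with IAA. The last genes were BnaA10g16820D at 49.8 FPKM with IAA and 3.92 FPKM in the control, BnaA10g16830D at 34.3 FPKM and 4.95 FPKM, and BnaA10g16840D at 92.4 FPKM and 11.3 FPKM. Log2 fold changes within the block ran from 1.85 to 4.80 with a median of 2.39. After the block, BnaA10g16850D was not higher, at 1.90 FPKM with IAA and 2.52 FPKM in the control. Before it, BnaA10g16730D was listed at 0 with IAA and was at 0.0269 FPKM in the control, too low to show a difference. The gene before that, BnaA10g16720D, was at 13.9 FPKM with IAA and 13.4 FPKM in the control.

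On chromosome A03, all 6 genes from BnaA03g06800D to BnaA03g06850D were members. BnaA03g06830D was the highest with IAA, at 64.8 FPKM against 8.60 FPKM in the control, and BnaA03g06840D had the largest ratio, 15.4, at 20.7 FPKM with IAA and 1.35 FPKM in the control. BnaA03g06800D was at 37.8 FPKM with IAA and 9.25 FPKM in the control, BnaA03g06810D at 24.9 FPKM and 3.90 FPKM, BnaA03g06820D at 10.95 FPKM and 2.14 FPKM, and BnaA03g06850D at 59.0 FPKM and 11.6 FPKM. The gene before the block, BnaA03g06790D, was expressed at far higher levels and differed little, at 215 FPKM with IAA and 174 FPKM in the control. After the block the difference became smaller, with BnaA03g06860D at 6.09 FPKM with IAA and 2.78 FPKM in the control.

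A block of similar make-up lay on chromosome C03, from BnaC03g08700D to BnaC03g08780D, with 6 members among 9 genes. BnaC03g08700D was at 43.3 FPKM with IAA and 5.09 FPKM in the control, BnaC03g08720D at 31.7 FPKM and 6.01 FPKM, BnaC03g08730D at 80.7 FPKM and 18.2 FPKM, and BnaC03g08740D at 25.8 FPKM and 2.67 FPKM. BnaC03g08750D was at 62.3 FPKM with IAA and 8.51 FPKM in the control, and BnaC03g08780D at 33.1 FPKM and 7.44 FPKM. The 3 genes between them were also higher with IAA but under the minimum, namely BnaC03g08710D at 8.48 FPKM against 0.686 FPKM in the control, BnaC03g08760D at 4.48 FPKM against 1.32 FPKM, and BnaC03g08770D at 3.42 FPKM against 1.35 FPKM. All 9 genes of this block were thus at least 2-fold higher, the 6 members by the rule. As on A03, the gene before the block was expressed more strongly and differed little, with BnaC03g08690D at 163 FPKM with IAA and 133 FPKM in the control. Median log2 fold changes of the members were 2.49 on A03 and 2.62 on C03. Whether the genes of these blocks are homeologs was not tested, since no sequences were used.

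**Figure D4:**
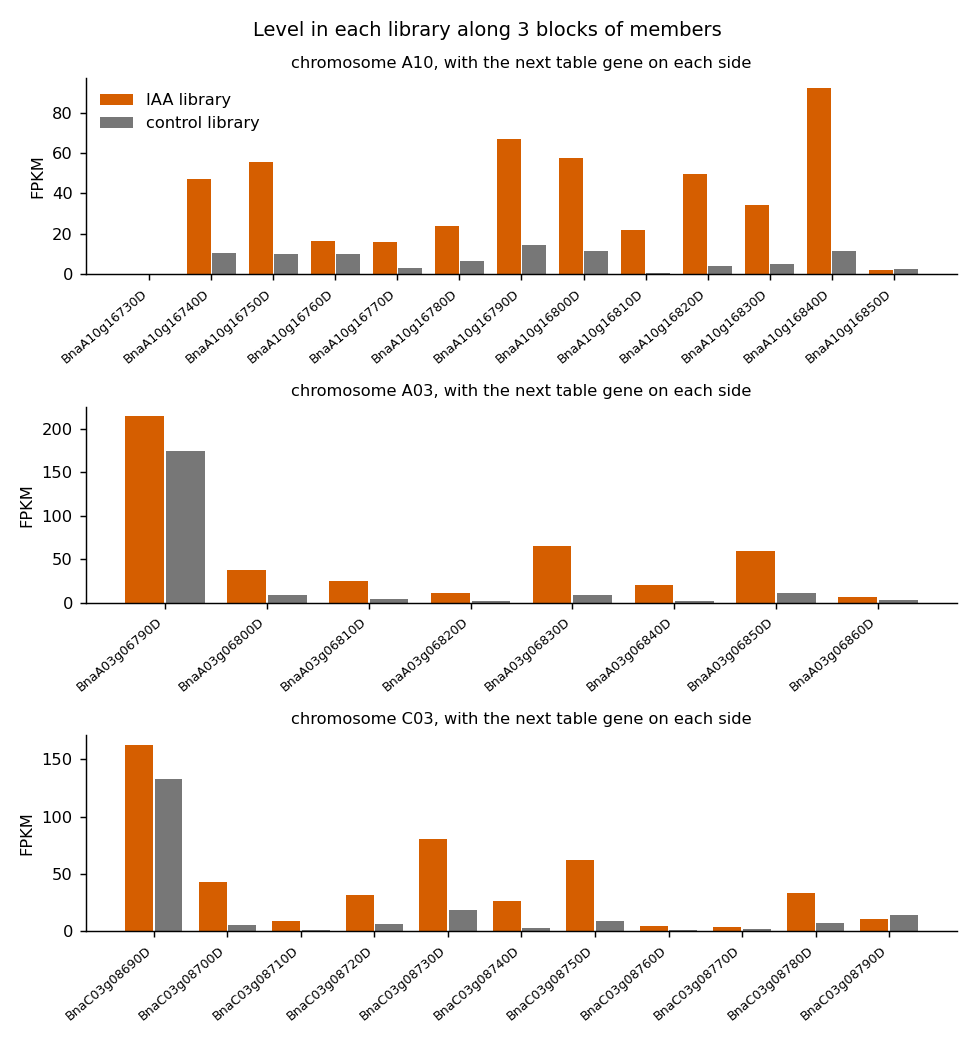
FPKM in the IAA library (orange) and the control library (grey) for each gene of the blocks on A10, A03 and C03 and the gene with values on each side. The rule required the orange bar to exceed the grey bar in every member. It also does so in the genes inside the blocks that are no members: BnaA10g16760D (16.7 and 10.2 FPKM, the smallest ratio), BnaC03g08710D, BnaC03g08760D and BnaC03g08770D. The genes before the blocks on A03 and C03 are high in both libraries.

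Chromosome C09 held 5 members close together, with log2 fold changes from 2.07 upwards. BnaC09g29100D and its neighbour BnaC09g29110D, at 104 FPKM with IAA and 18.3 FPKM in the control, were flanked by BnaC09g29090D and BnaC09g29120D, at 4.25 FPKM and 7.97 FPKM with IAA and both listed at 0 in the control. A separate block began 12 gene numbers after BnaC09g29100D. Between the blocks, BnaC09g29130D was at 0.102 FPKM with IAA and 0.0922 FPKM in the control. In the separate block, BnaC09g29220D was at 63.3 FPKM with IAA and 0.631 FPKM in the control. BnaC09g29240D was at 53.2 FPKM with IAA and a listed 0 in the control, and BnaC09g29260D at 257 FPKM and 61.1 FPKM. The next genes with values were not higher with IAA, with BnaC09g29280D at 0.217 FPKM with IAA and 0.5002 FPKM in the control and BnaC09g29290D at 2.98 FPKM and 3.40 FPKM. Several of these control values are listed at 0, so that the fold changes there depend on the added 0.1 FPKM.

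**Figure D5:**
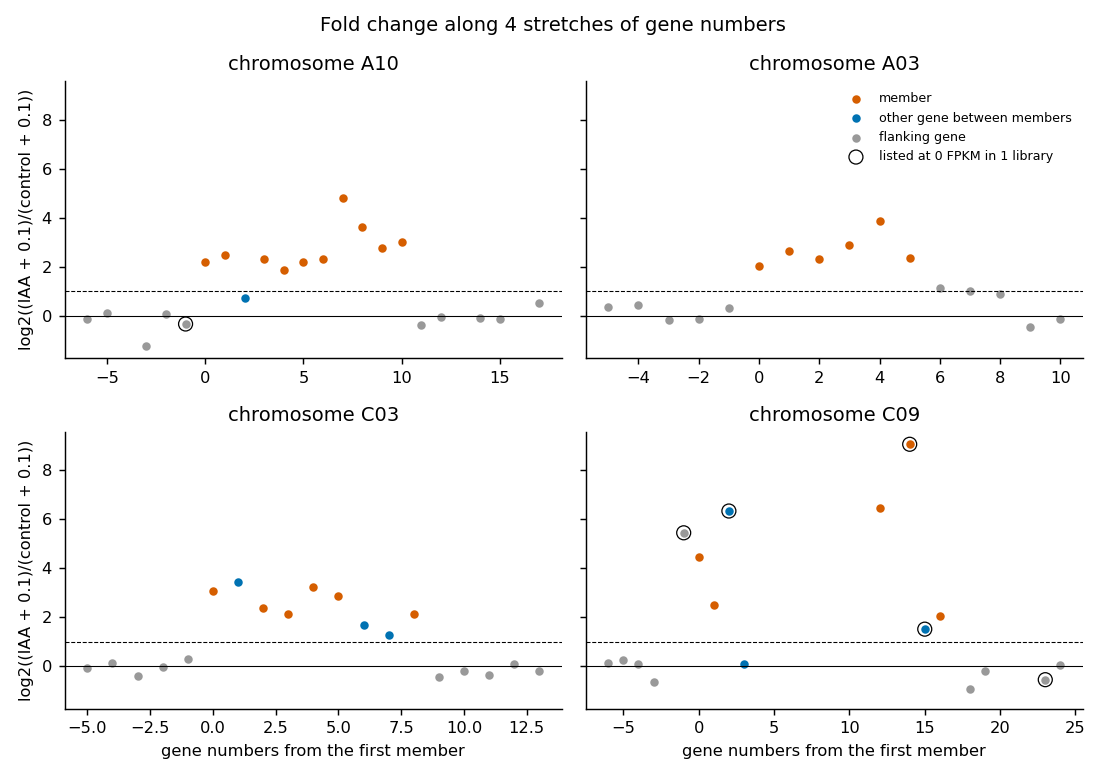
Log2 fold change (IAA over control after adding 0.1 FPKM, vertical) of each gene with values against its gene number counted from the first member (horizontal) on A10, A03, C03 and C09. Orange points are members, blue points other genes between them and grey points flanking genes, the dashed line marks a 2-fold difference, and circles mark genes listed at 0 FPKM in 1 library, whose height is set by the added value.

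Further along C09, BnaC09g39780D, at 13.8 FPKM with IAA and 3.82 FPKM in the control, was followed by BnaC09g39790D at 22.2 FPKM and 3.05 FPKM. BnaC09g39840D was at 21.9 FPKM with IAA and 4.31 FPKM in the control, and BnaC09g39850D at 38.04 FPKM and 6.26 FPKM. Between these pairs, BnaC09g39830D fell just short of the minimum, at 9.42 FPKM with IAA and 1.30 FPKM in the control. On A08, BnaA08g17890D was at 22.3 FPKM with IAA and 2.68 FPKM in the control, BnaA08g17900D at 58.1 FPKM and 14.3 FPKM, and BnaA08g17910D at 87.0 FPKM and 17.2 FPKM. These 3 genes were bordered by BnaA08g17880D, at 4.99 FPKM with IAA and 4.85 FPKM in the control, and BnaA08g17930D, at 14.5 FPKM and 14.1 FPKM.

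Among the remaining pairs, BnaA02g03890D was at 67.6 FPKM with IAA and 6.93 FPKM in the control, and BnaA02g03900D at 20.7 FPKM and 3.32 FPKM. On C02, BnaC02g34500D and BnaC02g34510D were nearly equal with IAA, at 15.1 FPKM and 15.6 FPKM, against 3.09 FPKM and 1.42 FPKM in the control. On C03, BnaC03g59180D was at 19.2 FPKM with IAA and 4.40 FPKM in the control, and BnaC03g59190D at 21.8 FPKM and 4.62 FPKM. The pairs on A06 (BnaA06g20920D and BnaA06g20930D), C07 (BnaC07g34010D and BnaC07g34020D), C03 (BnaC03g52570D and BnaC03g52580D) and C09 (BnaC09g31650D and BnaC09g31670D) differed less, with median log2 fold changes of 1.53, 1.21, 1.09 and 1.33.

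The members did not gather around the *Aux/IAA* genes, of which 24 of the 48 at 10 FPKM (50%) were at least 2-fold higher with IAA. No member on a numbered chromosome had an *Aux/IAA* gene as next number. Only 31 of the 14028 genes at 10 FPKM had one, so that its absence among 254 members says little. Of the 254 members, 4 (1.57%) lay within 10 gene numbers of an *Aux/IAA* gene, against 2.25% of the 14028 genes. BnaA06g27930D, at 25.5 FPKM with IAA and 11.2 FPKM in the control, lay 2 numbers from *BnaA06.IAA.5*. BnaC07g29010D, at 19.6 FPKM with IAA and 8.77 FPKM in the control, lay 2 numbers from *BnaC07.IAA.3*, which the study lists as the homeolog of *BnaA06.IAA.5*. BnaA06g24510D, at 25.6 FPKM with IAA and 12.01 FPKM in the control, lay 6 numbers from *BnaA06.IAA.4*, and BnaA09g39610D, at 161 FPKM and 76.5 FPKM, lay 7 numbers from *BnaA09.IAA.4*. The values of the *Aux/IAA* genes near these 4 members did not go one way. *BnaA06.IAA.5* was at 28.7 FPKM with IAA and 37.0 FPKM in the control, and *BnaC07.IAA.3* at 48.2 FPKM and 63.3 FPKM. *BnaA06.IAA.4* was at 127 FPKM with IAA and 92.4 FPKM in the control, and *BnaA09.IAA.4* at 3.19 FPKM and 0.945 FPKM.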

How the data were processed

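Per the labels and the methods of the study, the authors prepared TruSeq libraries, used bcl2fastq v2.18 and aligned the reads with HISAT2 v2.0.4 (reference Darmor-*bzh*, v4.2). The deposited FPKM were computed by them with Cufflinks v2.2.1. Each column is 1 library of 10 pooled seedlings. Where homeologs or tandem copies resemble each other, this step can share fragments out among them, which makes their values less certain. The members, lists and rules were chosen with earlier results of these data known. Fold changes on the log2 scale, with 0.1 FPKM added to each value, were computed with Python 3.11.15, numpy 2.4.6, pandas 2.3.3, scipy 1.17.1 and matplotlib 3.10.9. With 1 library per condition no test was run. The code for calls and depth estimates was run on simulated data, which does not check the calls of the members themselves. How sound the calls close to the limits are was not tested.

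Depth was estimated from *Aux/IAA* genes with low values (7 with IAA, 10 in the control, mean fragment length 195 bp), whose transcript lengths follow from the study's gene list. The ratio of the depths was 1.30, and the most frequent ratio of low values (under 0.3 FPKM in both libraries) was 1.29 over 5083 genes. The study's list names 119 *Aux/IAA* genes, of which 93 had values. Chromosomes and gene numbers were read from the identifiers, in which genes on unplaced sequence of a chromosome can carry numbers of that chromosome. Numbers without a value were not analysed here. Named genes were the 12 largest fold changes with at least 1 FPKM in the control, the 8 highest values with IAA, the 6 highest with under 1 FPKM in the control, members with consecutive numbers and the 2 genes nearest to each limit on each side, from which the text gives examples. Flanking genes, genes near *Aux/IAA* genes and the blocks were chosen after their values had been seen. Lists of auxin-related families, tissue markers and promoter motifs could not be applied, because no source used here names the genes or gives their sequences. The labelled tissue was therefore not checked against markers. Other pseudocounts, minimums, fold limits and scalings were tried.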

Additional observations from a re-analysis of the deposited data

How the results depend on the processing

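No paired analysis was possible because there is only 1 library of each kind. The number of members, 294 in the main setting (1.89% of the genes at 10 FPKM), was 837 (5.37%) at a fold limit of 1.5, 98 (0.628%) at a fold limit of 4 and 2629 (4.17%) with no minimum. The share was 2.39% with a minimum of 20 FPKM, 2.30% after centring, which moved the IAA values by 0.09 (log2) and 2.15% after rescaling to the upper quartile. Genes lower with IAA were 255 in the main setting, 5486 with no minimum, 523 at a minimum of 5 FPKM, where 433 were higher, 905 at a fold limit of 1.5, 39 at a fold limit of 4, 215 after centring and 227 after rescaling, so that more genes were lower than higher with no minimum, at 5 FPKM and at a fold limit of 1.5. Centring and rescaling both raised the IAA values, so that the 358 and 340 genes they gave had to include all 294 members. A pseudocount of 1 FPKM kept 264 of the 294. Members with a member as next number made up 13.9% of all members, 9.32% at a fold limit of 1.5, 31.6% at a fold limit of 4 and 9.55% with no minimum. On A10, the share of members was 2.96%, and 1.24% without the members in blocks, which takes out 10 of its 17 members and so had to lower it. The percentage of the members that were on the A subgenome was 46.6% in the main setting. In the others it ran from 43.9% at a fold limit of 4 to 50.2% with a minimum of 20 FPKM. It stayed within the 95% exact binomial interval of its main value in each setting. That interval is not the one given above for the A genes that were members. Of 252 log2 fold changes of 63 named genes under other pseudocounts and scalings, 0 changed sign. That outcome was fixed, since the same amount was added to both libraries and the scalings moved the values by only 0.09 and 0.06. Of the same 252 values, 38 left a counting interval computed for an effective length of 1 kb. Other causes of these changes were not tested. Transcript lengths of the members were not used, so that depth limits short members near 10 FPKM the most.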
